A study of Mus musculus with 6 samples.

Results

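The genes named Zfp900 to Zfp999 form a numbered run of mouse zinc finger genes. The run was chosen by the strain difference in counts of Zfp984 and Zfp983, which it holds. Its members were then taken by symbol, as the rows of the deposited table whose symbol is Zfp9 followed by exactly a pair of digits. The rule found 65 of the table's 51912 genes, with 64 symbols, since Zfp935 is listed under 2 Ensembl IDs. The numbers in use run from Zfp930 to Zfp995. The nearest lower symbols in the table were Zfp882, at 7.67 ± 0.936 CPM in C57BL/6 against 7.42 ± 0.309 CPM in DBA/2, and Zfp879, at 2.75 ± 0.522 and 2.87 ± 0.565 CPM. At the inner edge Zfp930 had 14.1 ± 0.914 and 12.3 ± 1.10 CPM, and the last member, Zfp995, had 7.03 ± 0.797 and 5.54 ± 0.417 CPM. CPM gives counts relative to the library total, adjusted by TMM factors, and ± is the SD over 3 libraries here and below.

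RNA from the hippocampus of 2 inbred mouse strains, C57BL/6 and DBA/2, was sequenced, with 3 libraries per strain. The labels give the strain and the tissue, and no sex, age, substrain or treatment. The protocol names frozen tissue picked at random and leaves unclear whether 1 library is 1 animal. A p-value here therefore reflects only how these libraries vary, and part of that variation may be technical. The series set out to find genes expressed differently in the 2 strains.

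Most genes of this series encode C2H2 zinc finger proteins. Each finger folds around a zinc ion and reads a few bases of DNA, so a row of fingers recognises a longer stretch. Many of these proteins also carry a KRAB domain, which recruits the corepressor Trim28 and with it the histone methyltransferase Setdb1, and many silence transposable elements. Such genes multiplied by local duplication, and neighbouring copies can differ between mouse strains.

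The 65 genes lie on 12 chromosomes. GENCODE M21 (build GRCm38) annotates 64 as protein coding and Zfp939 as a transcribed unprocessed pseudogene. Of the 64 with a coding sequence, 59 held a KRAB A-box pattern near the start of the predicted protein; Zfp934, Zfp956, Zfp957, Zfp972 and Zfp974 did not. The predicted proteins held a median of 11 C2H2 fingers, with 2 to 21 in those with any and none found in 3 members, and were 139 to 794 residues long. Members at most 500 kb apart were taken as 1 group, which gave 8 groups of 2 or more, with 46 members in all, and 19 members standing alone. The largest groups lie on chromosome 4, with 16 members over 2.34 Mb (145510759 to 147848366), and on chromosome 17, with 10 members over 1.30 Mb (21567008 to 22867134).

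The promoters below belong to the members whose values the results turn on, and they show what neighbouring copies share. Each is the 250 bases before a RefSeq start (build GRCm38.p6), 5′ to 3′ on the gene's strand, with capitals marking a CAAT box (CCAAT or its reverse complement ATTGG) or a GC box (GGGCGG or CCGCCC). The first 3 lie in the chromosome 4 group: Zfp984 at chr4:147809789-147810038 (minus strand), Zfp982 at chr4:147492167-147492416 (plus strand) and Zfp979 at chr4:147642509-147642758 (minus strand). The fourth, Zfp933 at chr4:147848419-147848668 (minus strand), closes the same group.
Zfp984: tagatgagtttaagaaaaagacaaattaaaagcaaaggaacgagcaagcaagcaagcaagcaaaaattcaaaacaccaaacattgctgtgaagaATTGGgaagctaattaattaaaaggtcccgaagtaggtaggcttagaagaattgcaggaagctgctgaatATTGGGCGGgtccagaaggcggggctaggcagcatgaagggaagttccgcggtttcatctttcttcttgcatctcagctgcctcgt
Zfp982: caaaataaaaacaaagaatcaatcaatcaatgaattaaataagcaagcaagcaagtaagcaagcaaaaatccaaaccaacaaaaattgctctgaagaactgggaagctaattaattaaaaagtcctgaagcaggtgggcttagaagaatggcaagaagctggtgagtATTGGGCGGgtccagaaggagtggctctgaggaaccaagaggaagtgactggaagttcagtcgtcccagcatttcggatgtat
Zfp979: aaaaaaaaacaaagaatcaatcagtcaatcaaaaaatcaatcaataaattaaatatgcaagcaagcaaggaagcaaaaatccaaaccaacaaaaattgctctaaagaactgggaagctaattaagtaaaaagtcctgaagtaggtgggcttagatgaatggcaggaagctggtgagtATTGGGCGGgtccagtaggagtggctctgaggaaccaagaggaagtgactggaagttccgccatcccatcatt
Zfp933: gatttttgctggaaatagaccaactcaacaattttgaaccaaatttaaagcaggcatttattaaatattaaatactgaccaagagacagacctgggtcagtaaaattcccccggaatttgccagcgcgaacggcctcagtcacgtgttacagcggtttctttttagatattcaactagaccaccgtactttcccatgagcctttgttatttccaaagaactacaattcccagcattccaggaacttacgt
In the first 3 the boxes overlap in 1 run, ATTGGGCGG, which was noticed in these windows and then counted. It was found, on either strand, in 7 of the 10 chromosome 4 members with a window and in 9 of 54 members with one, against 0.274% of 27025 genes. Zfp933, although it lies in the same group, held none of the motifs searched. Parts of these windows are annotated exons of other genes: 52 bases of the Zfp984 window (Gm20707) and up to 27 in a Zfp982 window (C230088H06Rik). Zfp982 has other RefSeq windows as well, which lack the run. Identity was measured on 1 window per gene, and for Zfp982 this was not the printed one. Identical bases were counted over all aligned columns, gaps included. On that basis window pairs within the group were 42.0% (Zfp993 and Zfp984) to 89.0% (Zfp980 and Zfp979) identical. Zfp984 matched Zfp981 in 76.0%, Zfp979 in 68.4% and Zfp933 in 51.2% of columns.

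The next promoters belong to members with large or abundant signal outside chromosome 4: Zfp983 at chr17:21650361-21650610 (plus strand), Zfp949 at chr9:88547770-88548019 (plus strand) and Zfp950 at chr19:61140841-61141090 (minus strand).
Zfp983: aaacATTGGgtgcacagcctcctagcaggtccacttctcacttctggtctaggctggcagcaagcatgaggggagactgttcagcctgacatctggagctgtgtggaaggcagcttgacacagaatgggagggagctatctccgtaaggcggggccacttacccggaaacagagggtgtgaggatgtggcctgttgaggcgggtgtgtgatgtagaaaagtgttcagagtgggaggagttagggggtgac
Zfp949: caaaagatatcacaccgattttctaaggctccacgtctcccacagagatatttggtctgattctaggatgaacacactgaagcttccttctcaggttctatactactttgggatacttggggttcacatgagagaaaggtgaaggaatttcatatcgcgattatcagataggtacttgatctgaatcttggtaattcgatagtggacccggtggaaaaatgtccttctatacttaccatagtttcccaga
Zfp950: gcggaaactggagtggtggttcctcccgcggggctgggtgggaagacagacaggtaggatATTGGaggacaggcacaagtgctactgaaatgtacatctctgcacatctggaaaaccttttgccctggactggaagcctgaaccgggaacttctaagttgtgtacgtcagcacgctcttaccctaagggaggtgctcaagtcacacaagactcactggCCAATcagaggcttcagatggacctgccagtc
Zfp983 and Zfp950 held a CAAT box, and Zfp949 held neither box in this window. Of the Zfp983 window, 114 bases lie in an exon of the lincRNA CAAA01141682.2.

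Zfp942 and Zfp944 each start beside an oppositely directed zinc finger gene, Zfp943 and Zfp758, and only the bases between the annotated starts are shown, read on the minus strand: chr17:21962465-21962551 for Zfp942 and chr17:22361401-22361452 for Zfp944.
Zfp942 interval: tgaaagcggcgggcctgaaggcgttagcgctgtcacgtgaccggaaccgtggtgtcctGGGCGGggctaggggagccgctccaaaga
Zfp944 interval: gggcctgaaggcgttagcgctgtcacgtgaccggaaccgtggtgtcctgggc
All 52 bases of the Zfp944 interval occur unbroken in the 87-base interval of Zfp942, from its base 11 on. The 250-base windows of these genes had 224 identical bases over 275 aligned columns (81.5%). The windows begin at different places in the shared sequence, and their unpaired ends count as unlike. Of these windows, 163 bases for Zfp942 and 198 for Zfp944 lie in an exon of Zfp943 and Zfp758.

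Over the 54 symbols with a RefSeq window, a CAAT box on either strand was found in 41 (75.9%), against 46.8% of 250 other numbered Zfp genes and 37.5% of 27025 genes. A GC box was found in 17 (31.5%), against 45.6% and 35.4%. The TATA box sequence TATAAA or its reverse complement was in 0 of 54 members, against 9.2% of other numbered Zfp genes and 14.3% of all genes. A gene with several windows counted once if any window held the letters. The members are related by duplication, so they are not independent draws, and a match of letters shows no binding.

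**Figure D1:**
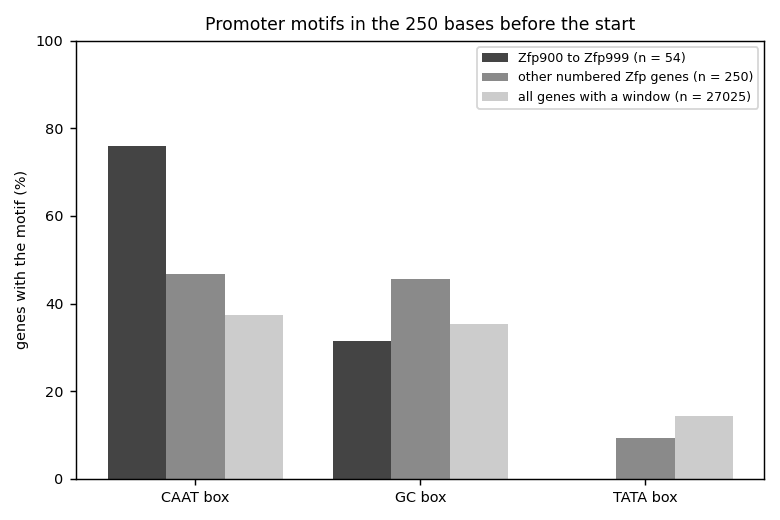
Percentage of genes with each motif on either strand in the 250 bases before a RefSeq start, for 54 Zfp900 to Zfp999 genes, 250 other numbered Zfp genes and 27025 genes. The CAAT box bar of the members, at 75.9%, is the tallest of the 3, and their TATA box bar is at 0.

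Library totals ran from 13839366 to 20185683 counts. Xist, the RNA of the inactive X chromosome of female cells, had 3214 and 6995 counts in C57BL/6 replicates 1 and 3 and 1 to 12 in the other 4 libraries, so counts of called members are given below with and without those libraries. Neuronal markers of hippocampus were present in every library, with a summed level of 5740 to 6136 CPM. Of these 12 markers, 1 was called higher in DBA/2 (Neurod6) and 1 lower (C1ql2, 56.4 ± 5.05 and 23.8 ± 2.46 CPM). The marker calls in this paragraph stand against 22.8% of all genes tested being called, 9.09% higher and 13.7% lower in DBA/2. Markers of the adjoining thalamus and habenula summed to 373 to 519 CPM in C57BL/6 against 195 to 251.5 CPM in DBA/2, with 5 of 8 called lower in DBA/2. Oligodendrocyte markers summed to 6394 to 7988 and 4319 to 5811 CPM, with 1 of 6 called lower. Microglia markers (4 of 6 called lower) summed to 306 to 336 and 259 to 287 CPM. Astrocyte markers (1 of 6 called higher, 4 lower) summed to 4704 to 4963 and 4876 to 5436 CPM. The part of these tissue differences in the values of the zinc finger genes was not tested. In bulk tissue, fewer cells of a type and less RNA per cell cannot be told apart.

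Counts were found for 61 of the 65 members. Zfp967, Zfp980, Zfp989 and 1 of the 2 Zfp935 entries had 0 counts in all 6 libraries, which allows up to 3 counts over the libraries of a strain. On the FPKM scale, which divides by gene length, 33 members averaged at least 1 FPKM over the 6 libraries, 15 at least 5 FPKM and 15 under 0.1 FPKM. The median over all 65 was 1.20 FPKM, against 3.26 FPKM over the 309 other numbered Zfp genes.

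The 5 highest mean levels were those of Zfp938, Zfp932, Zfp983, Zfp949 and Zfp956. Zfp938 had 11.9 ± 0.081 FPKM in C57BL/6 against 11.9 ± 0.77 FPKM in DBA/2. Zfp932, whose protein is known as a repressor of endogenous retroviruses in embryonic stem cells, had 11.3 ± 0.61 and 10.7 ± 0.57 FPKM, and these 2 genes did not differ beyond their spread in C57BL/6. In DBA/2 the order changed: Zfp983 (15.5 ± 1.4 FPKM) and Zfp949 (15.3 ± 0.42 FPKM) had the highest deposited FPKM and did not differ beyond their spread. The place of Zfp983 rests on its listed length of 1383 bases, while its longest GENCODE transcript has 4354 bases. In C57BL/6 the same genes had 5.97 ± 0.70 and 5.17 ± 0.52 FPKM. Zfp956 had 8.70 ± 0.40 FPKM in C57BL/6 against 7.95 ± 0.31 FPKM in DBA/2.

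**Figure D2:**
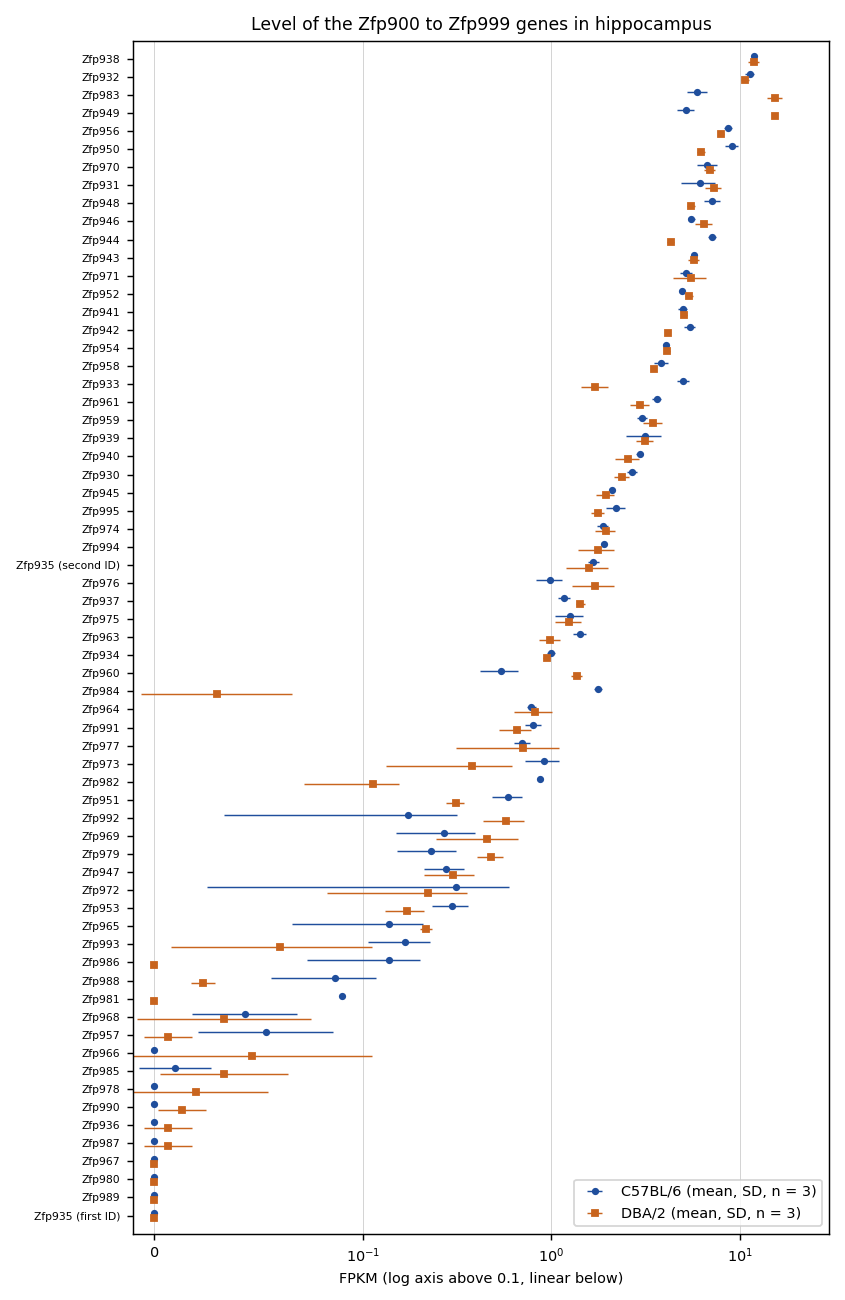
Mean FPKM of each of the 65 genes in C57BL/6 (circles) and DBA/2 (squares), with SD over 3 libraries, on an axis that is logarithmic above 0.1 and linear below. Most pairs of symbols overlap, while some, among them Zfp984, Zfp982, Zfp933, Zfp983, Zfp949 and Zfp960, show separated symbols.

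Zfp984 and Zfp983 were named when the genes were chosen, for their difference between these strains, and are therefore described with no test. Zfp984 (ENSMUSG00000078495, chr4:147753974-147809788, minus strand), whose predicted protein has 11 fingers and a KRAB pattern, had 90, 73 and 98 counts in C57BL/6 replicates 1 to 3 and 0, 1 and 3 counts in DBA/2. Its level was 5.20 ± 0.281 CPM in C57BL/6 against 0.0915 ± 0.112 CPM in DBA/2. The ratio of the summed counts, scaled by depth, was 62.0, and it rests on 4 counts in all in DBA/2. The lincRNA Gm20707 overlaps it on the same strand and had 3, 8 and 10 counts against 0, 0 and 1. Of the longest Zfp984 transcript, 4.43% matched other genes at 98% identity or more.

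Zfp983 (ENSMUSG00000035868, chr17:21650624-21664966, plus strand), with 10 predicted fingers and a KRAB pattern, went the other way. It had 127, 109 and 189 counts in C57BL/6 against 327, 392 and 297 in DBA/2. Its level was 8.33 ± 0.953 CPM in C57BL/6 against 21.2 ± 1.95 CPM in DBA/2, a log2 fold change of 1.34 ± 0.11 (SE), where log2 fold changes are DBA/2 over C57BL/6. For both genes every library of 1 strain lay on 1 side of every library of the other.

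Beyond this pair, 45 members had enough counts to be tested, and 5 were called higher and 9 lower in DBA/2 (quasi-likelihood test of edgeR, p adjusted by Benjamini-Hochberg over 17517 genes, threshold 0.05). Over all genes tested 22.8% were called, 9.09% higher and 13.7% lower. Without the C57BL/6 libraries that hold Xist counts, 6 were called higher and 7 lower; the lone C57BL/6 library left is then assumed to vary like the DBA/2 libraries. The count filter keeps a gene that is high in only 1 strain, so the members that passed it are not all members. Zfp982, counted among the 9 lower, passed it through its C57BL/6 libraries alone and so had to differ to be tested. Whether reads of both strains align equally well to build GRCm38 was not tested, so lower counts need not mean less RNA.

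No library of 1 strain fell within the range of the other in 22 of the 45, and in 36.8% of all genes tested. An absolute log2 fold change of at least 1 together with a call was seen in 6 of the 45 and in 5.21% of all genes. Zfp982, which had to differ to be tested, is included in both of these counts of members. The median log2 fold change of the 45 was -0.06 and the median absolute value 0.20, against 0.15 over all genes. In 31 of the 45 the absolute value was under 0.5. Of the 290 other numbered Zfp genes tested, 23 were called higher and 47 lower.

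**Figure D3:**
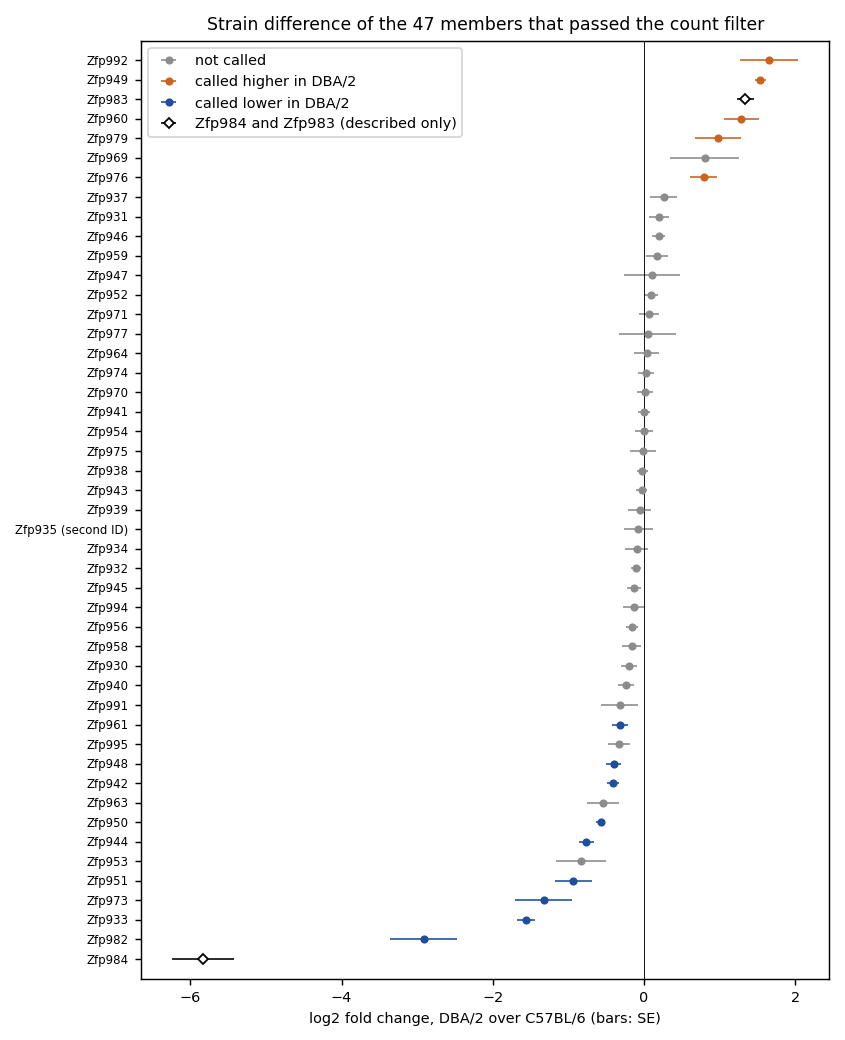
Log2 fold change (DBA/2 over C57BL/6) of the 47 members that passed the count filter, with standard errors, in order of value. Grey points are not called, coloured points are called, and the diamonds mark Zfp984 and Zfp983, which are described only; most points lie near 0, with long ends on both sides.

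Among the members lower in DBA/2, Zfp982 (chr4:147492417-147513486) had 21, 18 and 27 counts in C57BL/6 against 2, 4 and 2 in DBA/2. Every DBA/2 library lay far below every C57BL/6 library. The level fell from 1.31 ± 0.0415 to 0.165 ± 0.0619 CPM, a log2 fold change of -2.91 ± 0.45 (SE; edgeR adjusted p = 2.45e-05). These are few reads, and the gene passed the count filter through its C57BL/6 libraries alone, so it had to differ to be tested and its p is given as description only. The log2 fold change ran from -3.26 to -0.75 over the alternatives.

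Zfp933 (chr4:147822986-147848366), the last gene of the same group, was the most abundant member there. It had 383, 301 and 397 counts in C57BL/6 against 125, 142 and 84 in DBA/2. The level fell from 21.6 ± 1.65 to 7.24 ± 1.16 CPM, a log2 fold change of -1.56 ± 0.12 (SE; edgeR adjusted p = 3.04e-10). None of its longest transcript matched another gene at 98% identity.

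Zfp973 (chr2:176670522-176719085) had 37, 30 and 62 counts in C57BL/6 against 5, 27 and 16 in DBA/2. The DBA/2 libraries were all lower but spread widely, from 0.293 to 1.59 CPM, and the log2 fold change was -1.33 ± 0.38 (SE; edgeR adjusted p = 0.0182). Its transcript shares 22.2% of its bases with other genes, and Gm14305 overlaps it on the same strand. Summed with 7 similar genes the log2 fold change was -0.53 (edgeR adjusted p = 0.0638). The call was also lost without C57BL/6 replicate 3 and without both libraries that hold Xist counts.

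Zfp950 (chr19:61053840-61140840), with 17 predicted fingers, had the highest CPM of all members and a smaller difference. Its libraries had 93.2, 93.0 and 106 CPM in C57BL/6 against 62.0, 68.1 and 66.7 CPM in DBA/2. The lowest C57BL/6 library stood well above the highest DBA/2 library, and the log2 fold change was -0.57 ± 0.06 (SE; edgeR adjusted p = 1.37e-07). Grk5, which overlaps it on the opposite strand, was not called (log2 fold change 0.16, edgeR adjusted p = 0.317).

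Another 5 members were called lower. Zfp944 went from 20.1 ± 1.05 to 11.9 ± 0.491 CPM (log2 fold change -0.76, edgeR adjusted p = 1.67e-06). Zfp942 went from 28.7 ± 1.94 to 21.6 ± 0.451 CPM (-0.41, edgeR adjusted p = 0.000395). Zfp948, the first gene of the chromosome 17 group, went from 18.9 ± 1.86 to 14.3 ± 0.703 CPM (-0.40, edgeR adjusted p = 0.00426). In all 3 the strains were fully separated, and each call held under every alternative tried.

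Zfp951 on chromosome 5 had 39, 46 and 55 counts against 23, 28 and 19 (log2 fold change -0.93, edgeR adjusted p = 0.00702), and the DESeq2 Wald test gave an adjusted p of 0.0508. Zfp961 on chromosome 8 went from 15.8 ± 0.982 to 12.6 ± 1.43 CPM (-0.32, edgeR adjusted p = 0.0305). Its call was lost under 8 of 17 alternatives, among them DESeq2, limma on FPKM, and leaving out C57BL/6 replicate 1 or 3 or DBA/2 replicate 1 or 3. Gm45694, which overlaps Zfp961 on the same strand, was also lower (-0.92, edgeR adjusted p = 0.0123). Both differences are smaller than those of Zfp982 and Zfp933 on chromosome 4.

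Among the members higher in DBA/2, Zfp949 (ENSMUSG00000032425, chr9:88548020-88571061, plus strand) was the most abundant. It had 370, 261 and 463 counts in C57BL/6 against 1087, 1027 and 884 in DBA/2. The level rose from 21.4 ± 2.15 to 62.6 ± 1.89 CPM, with wide separation of the strains, a log2 fold change of 1.54 ± 0.07 (SE; edgeR adjusted p = 8.05e-14). None of its longest transcript matched another gene at 98% identity. In the 500 kb on either side, 1 of 11 tested genes was called higher and 3 lower, against 22.8% called over all genes.

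Zfp960 (chr17:17064113-17089628), outside the chromosome 17 group, had 25, 15 and 35 counts in C57BL/6 against 59, 66 and 48 in DBA/2. The level rose from 1.45 ± 0.329 to 3.60 ± 0.245 CPM, a log2 fold change of 1.28 ± 0.23 (SE; edgeR adjusted p = 0.000180). Its transcript is near-identical to Zfp97 over 99.6% of its length, so the authors' counting could have split reads between them. Zfp97 itself had 49, 21 and 32 against 52, 56 and 47 counts, and with it and Gm6712 added the log2 fold change was 0.69 (edgeR adjusted p = 0.00132).

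Zfp976 on chromosome 7 rose from 4.95 ± 0.796 to 8.46 ± 2.10 CPM (log2 fold change 0.79, edgeR adjusted p = 0.00193). Zfp979 on chromosome 4 rose from 0.953 ± 0.326 to 1.96 ± 0.328 CPM (0.98, edgeR adjusted p = 0.0205), from 8 to 33 counts in a library. The Zfp979 call was lost with DESeq2 and without C57BL/6 replicate 2 or DBA/2 replicate 3, with an adjusted p of up to 0.104 over these fits.

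Zfp992 on chromosome 4 had 25, 4 and 12 counts in C57BL/6 against 41, 35 and 46 in DBA/2, a log2 fold change of 1.65 ± 0.39 (SE; edgeR adjusted p = 0.00416). Its transcript shares 54.8% of its bases with other genes, mainly Zfp991 (97.2% shared). Summed with Zfp991, Zfp993 and the pseudogene Znf41-ps, the level was 5.92 ± 0.741 CPM in C57BL/6 against 5.30 ± 0.663 CPM in DBA/2, a log2 fold change of -0.16 (edgeR adjusted p = 0.544). The rise of Zfp992 alone is therefore uncertain, and Znf41-ps went the other way, with 47, 39 and 40 counts against 19, 9 and 8.

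**Figure D4:**
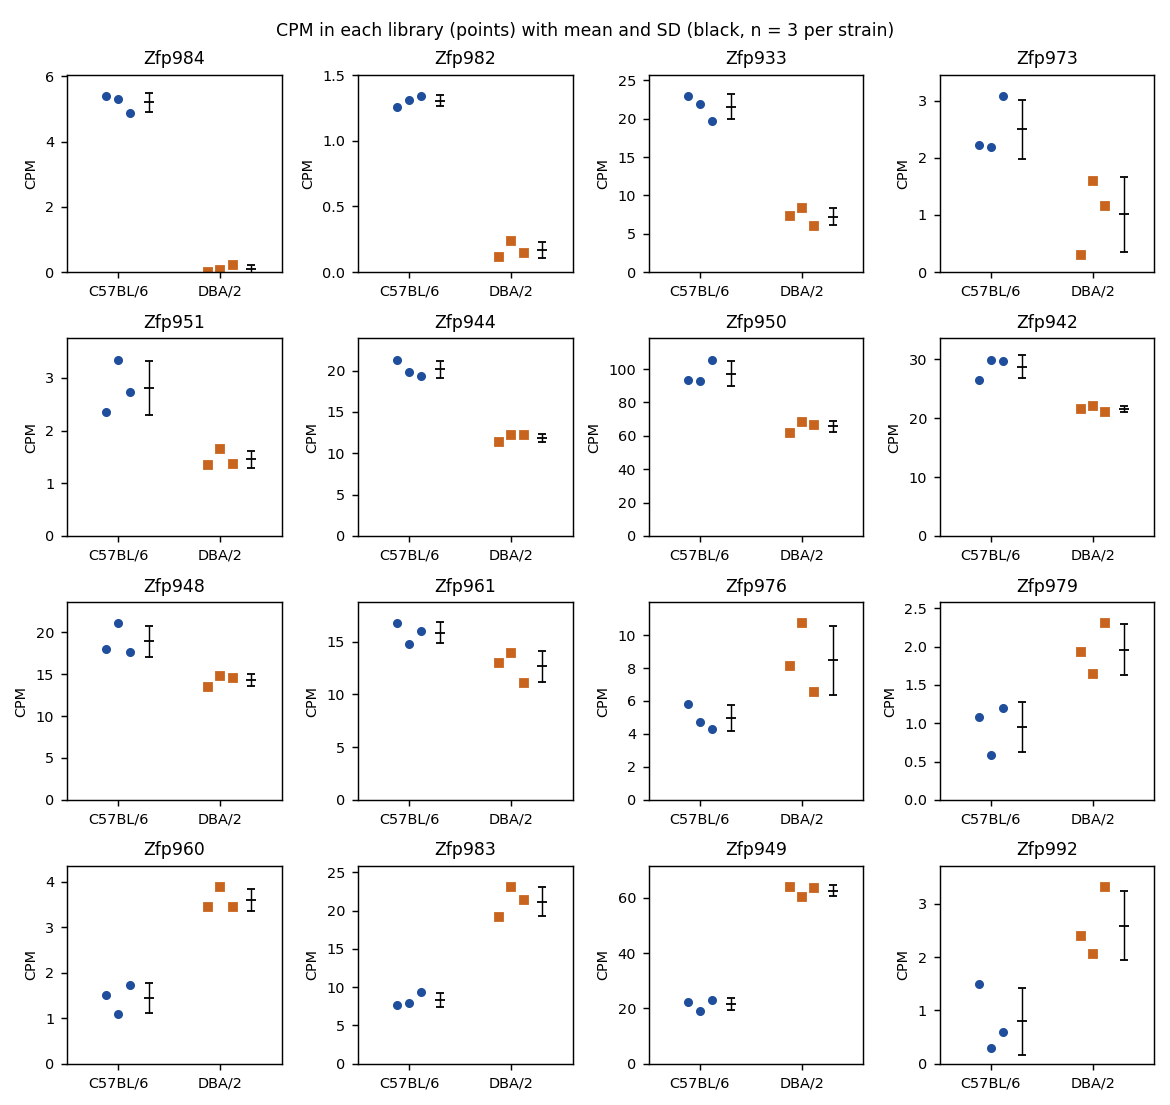
CPM in each library for the 14 called members and, for description only, Zfp984 and Zfp983, with the mean and SD of each strain in black. Each panel starts at 0; in the panels of the 14 called members the 3 DBA/2 points lie on 1 side of the 3 C57BL/6 points, most closely in Zfp961.

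The other 31 tested members were not called. Their log2 fold changes ran from -0.83 for Zfp953 (edgeR adjusted p = 0.0772), with 10 to 35 counts in a library, to 0.80 for Zfp969 (edgeR adjusted p = 0.229), with 5 to 17. Zfp963 on chromosome 8 came next among the low values (3.28 ± 0.249 and 2.24 ± 0.293 CPM, log2 fold change -0.54, edgeR adjusted p = 0.0714). Abundant members such as Zfp938 (-0.02 ± 0.08, SE), Zfp941 (0.00 ± 0.08), Zfp970 (0.01 ± 0.11) and Zfp954 (0.00 ± 0.12) lay near 0 with small errors. Zfp956 (-0.15 ± 0.08) and Zfp946 (0.19 ± 0.09) did not pass either.

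Of the untested members, 14 had counts. Zfp981 on chromosome 4 had 5, 4 and 6 counts in C57BL/6 against 0 in all DBA/2 libraries. That is 4.75-fold higher in C57BL/6 if 3 counts are allowed over the DBA/2 group and the C57BL/6 counts are taken as exact. Zfp986, on the same chromosome, had 5, 2 and 3 against 0 (3.17-fold higher on the same basis), although 96.7% of its transcript is shared with other genes. Zfp957 on chromosome 14 had 5, 2 and 2 counts against 0, 1 and 0, which is 8.56 times as many at equal depth (95% counting interval 1.19 to 375). Zfp988 had 3, 3 and 7 against 1, 1 and 1, 4.12 times as many (1.13 to 22.5). These 4 leaned to C57BL/6, at a depth that gives no test across genes.

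In the other direction, 5 members had 0 counts in C57BL/6 against 1 to 6 counts in all in DBA/2: Zfp936, Zfp966, Zfp978, Zfp987 and Zfp990. Zfp966 had 1, 0 and 5 counts in DBA/2, and most of those came from 1 library. Another 5 untested members, Zfp965, Zfp968, Zfp972, Zfp985 and Zfp993, had between 0 and 9 counts in each library of both strains. The intervals given for untested members cover counting error only, and the folds against 0 counts leave out the counting error of the C57BL/6 counts.

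The chromosome 4 group held members called in both directions. Its 15 members other than Zfp984 summed to 26.4 to 30.05 CPM in the C57BL/6 libraries against 13.7 to 14.6 CPM in DBA/2. Zfp933 made up 74.9 to 79.8% of that sum in C57BL/6 and 42.6 to 57.03% in DBA/2. Of 6 tested, Zfp979 and Zfp992 were called higher and Zfp982 and Zfp933 lower, Zfp984 was lower by description, and Zfp991 was not called (2.36 ± 0.219 and 1.89 ± 0.374 CPM). As given above, the calls of Zfp979 and Zfp992 did not hold under every alternative. Zfp982 passed the count filter through its C57BL/6 libraries alone. The median level of the group was 0.0617 FPKM, and 10 members were too low to test.

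Among the other genes inside that span, 6 were tested, 1 was called higher and 2 lower, against the 22.8% called over all genes. The lincRNA Gm26880 lies inside Zfp981 on the opposite strand. It had 0, 2 and 0 counts in C57BL/6 against 154, 136 and 122 in DBA/2, or 0.0485 ± 0.0840 and 8.60 ± 0.537 CPM (edgeR adjusted p = 5.22e-13). Without knowing whether counting used strand, reads of such overlapping genes cannot be assigned with certainty. Gm16503 had 32, 30 and 42 counts against 4, 6 and 2 (log2 fold change -3.01, edgeR adjusted p = 1.54e-06). Gm26880 and Gm16503 each passed the count filter through 1 strain alone, so each had to differ to be tested. Both are among the calls counted here, and their p are given as description only. In the 500 kb on either side of the group, 2 of 18 tested genes were called higher and 9 lower, where 22.8% of all genes were called. Miip, which follows Zfp933, was among the lower ones (-1.03, edgeR adjusted p = 2.78e-08).

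The chromosome 17 group was more highly expressed. All 10 members were tested, and the median level was 5.26 FPKM. The 9 members other than Zfp983 summed to 155 to 159 CPM in C57BL/6 against 130.1 to 141 CPM in DBA/2, with no overlap. Zfp942, Zfp944 and Zfp948 were called lower, Zfp983 was higher by description, and Zfp943, Zfp945, Zfp946, Zfp947, Zfp994 and Zfp995 were not called. Of the uncalled members, Zfp995 had the largest absolute log2 fold change (-0.33, edgeR adjusted p = 0.121). Of the neighbours, Zfp760 rose from 18.0 ± 1.71 to 30.1 ± 1.54 CPM (0.75, edgeR adjusted p = 4.30e-07), and Zfp758 fell as below. In the 500 kb flanks, 0 of 7 tested genes were called higher and 2 lower, against the same 22.8%.

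The paired starts printed above gave unlike results. Zfp944 and Zfp758, whose starts are 53 bases apart, both fell: Zfp758 had 220, 190 and 297 counts in C57BL/6 against 136, 134 and 94 in DBA/2 (log2 fold change -0.88, edgeR adjusted p = 3.47e-06). Zfp942 and Zfp943 start 88 bases apart, and Zfp943 was not called, with 30.6 ± 0.800 and 29.9 ± 1.87 CPM (-0.03, edgeR adjusted p = 0.817). The difference between Zfp942 and Zfp943 in their response was not tested.

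**Figure D5:**
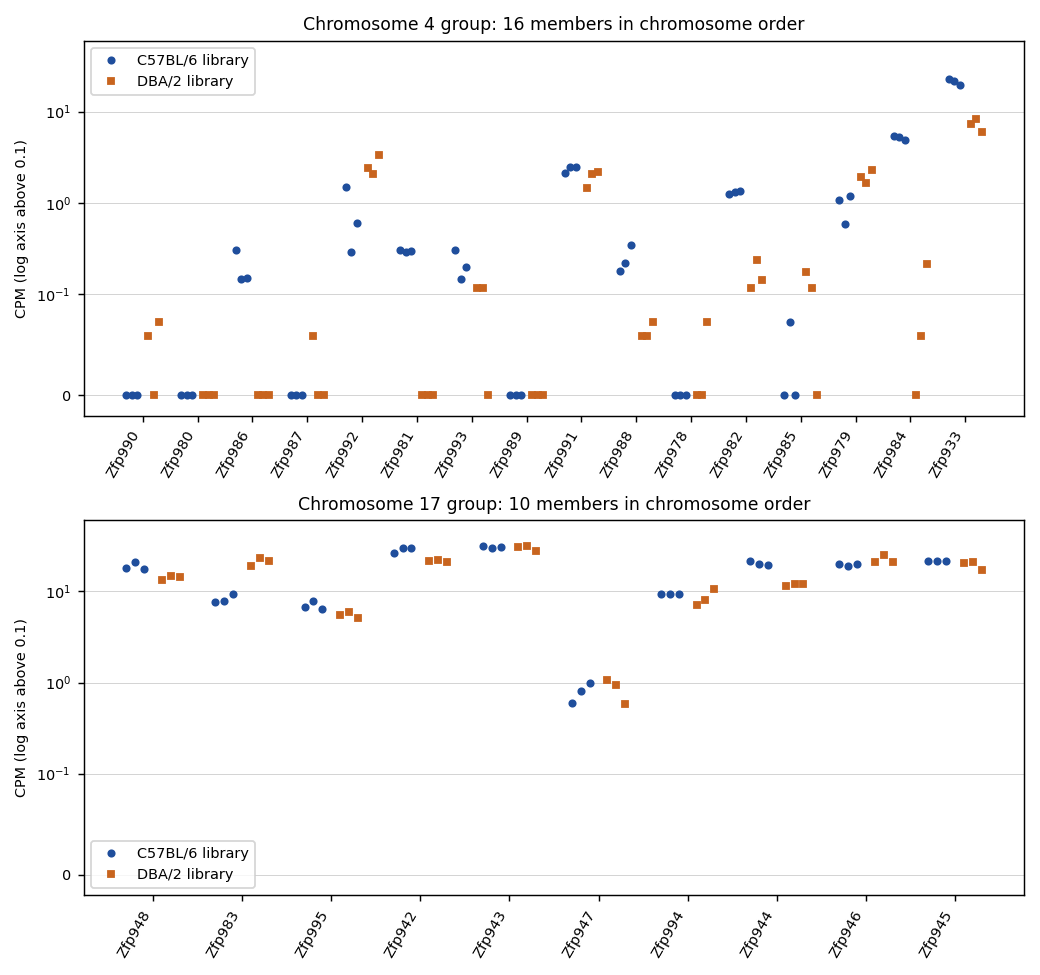
CPM in each library for the 16 chromosome 4 members (top) and the 10 chromosome 17 members (bottom) in chromosome order, on an axis that is logarithmic above 0.1 and linear below. The upper panel holds many members at or near 0. Of its tested members, the strains are separated for Zfp982, Zfp984 and Zfp933 (lower in DBA/2) and for Zfp979 and Zfp992 (higher in DBA/2). Apart from Zfp947, the lower panel lies between 5.11 and 31.5 CPM.

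A similar gene, Gm15446, bears on Zfp932, although none of the longest Zfp932 transcript matched another gene at 98% identity. Alone it had 36.2, 39.7 and 36.1 CPM in C57BL/6 against 34.7, 32.7 and 36.6 CPM in DBA/2 and was not called (log2 fold change -0.11, edgeR adjusted p = 0.328). Gm15446 had 4, 74 and 301 counts in the 3 C57BL/6 libraries and 490, 466 and 336 in DBA/2. The C57BL/6 libraries differ widely from each other for this gene, and it was not called (edgeR adjusted p = 0.231). Zfp932 and Gm15446 summed gave a log2 fold change of 0.48 (edgeR adjusted p = 0.00493).

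The machinery through which KRAB proteins act was tested next, as 33 genes of the Trim28 and Setdb1 pathway, of which 32 had enough counts. In DBA/2, 3 were called higher and 2 lower (15.6%, against 22.8% of all genes tested), and the median log2 fold change was 0.03, against 0.00 over all genes. Trim28, the corepressor bound by the KRAB domain, rose from 117.6 ± 1.26 to 133.2 ± 7.52 CPM (log2 fold change 0.18, edgeR adjusted p = 0.0125). The call was lost without DBA/2 replicate 3 (edgeR adjusted p = 0.0864) and without the C57BL/6 libraries that hold Xist counts (edgeR adjusted p = 0.229). Setdb1, the methyltransferase it recruits, was not called (64.3 ± 0.293 and 69.2 ± 4.85 CPM, edgeR adjusted p = 0.235). Fam208a, a subunit of the HUSH silencing complex, rose (0.25, edgeR adjusted p = 0.000598), while Pphln1, another HUSH subunit, fell (-0.39, edgeR adjusted p = 0.000196). The Pphln1 call was lost without the libraries that hold Xist counts (edgeR adjusted p = 0.0598).

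Hdac1, a histone deacetylase, fell from 32.4 ± 0.421 to 11.2 ± 1.32 CPM (log2 fold change -1.53, edgeR adjusted p = 4.83e-12). Its similar copy Gm10093 had 40, 25 and 40 counts against 137, 160 and 154, and the 2 summed gave -0.73 (edgeR adjusted p = 4.90e-07). Sumo2, a small protein modifier, was called higher (0.54, edgeR adjusted p = 0.0309), but with its 4 similar copies added the value was -0.25 (edgeR adjusted p = 0.268). The Sumo2 call was also lost under 5 other alternatives, among them DESeq2 and leaving out C57BL/6 replicate 2 or 3 or DBA/2 replicate 1. Without the C57BL/6 libraries that hold Xist counts, 1 gene of the pathway was called higher and 1 lower.

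Of 16 well-studied KRAB zinc finger genes outside the series, 14 were tested, 1 was called higher and 3 lower (28.6%, near the 22.8% of all genes tested). Rsl1, a repressor of sex-biased liver genes, went from 3.76 ± 0.632 to 1.63 ± 0.171 CPM (log2 fold change -1.18, edgeR adjusted p = 0.000365). Zfp568, a repressor of a placental Igf2 transcript, went from 6.41 ± 0.219 to 3.24 ± 0.556 CPM (-0.98, edgeR adjusted p = 0.000120). Zfp354c fell (-0.26, edgeR adjusted p = 0.00783) and Zfp445, which protects imprinted loci, rose (0.13, edgeR adjusted p = 0.0381). Zfp57, which also maintains imprints, was not called (16.8 ± 0.949 and 14.9 ± 0.432 CPM, edgeR adjusted p = 0.214). The calls of Zfp354c and Zfp445 were lost under 5 and 7 of 17 alternatives.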

How the data were processed

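RNA was sequenced from hippocampus in 3 libraries each of C57BL/6 and DBA/2, with strain taken from the labels. The authors deposited raw gene counts, as whole numbers, and FPKM values beside them, which equalled the counts scaled by listed length and library total within 0.005. Build GRCm38 and the tools HISAT2 2.0.1, Cufflinks 2.2.1 and Trimmomatic 0.30 are named per the submitters' processing notes, with no order. How reads were counted, on which annotation and whether by strand, is not given in the sources used here. A further 12 sample columns of the table match no labelled sample and were not used.

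Counts were tested with edgeR 4.0.16 in R 4.3.3 (robust quasi-likelihood F test, TMM factors, filterByExpr by strain), with Benjamini-Hochberg adjustment over 17517 genes and calls at an adjusted p under 0.05. The script was tested on simulated data. DESeq2 1.42.0 and limma 3.58.1 (voom, and log2 of FPKM plus 1 or plus 0.1) were alternatives, as were other scalings and filters, a replicate block, leaving out libraries, and summing genes of similar transcripts (BLAST 2.17.0, 95% identity, 200 bases or more, and 0.5 or more of the shorter transcript). Pairs of libraries within a strain differed by more than sampling noise (chi-square per degree of freedom 3.16 to 3.93), so none was treated as a repeat. Total counts per library, 13839366 to 20185683, set the precision, and intervals are exact and cover counting error only.

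Named members are Zfp984 and Zfp983, all called members, the 5 of highest mean FPKM, and neighbours or similar genes of these. Other members named, such as Zfp953, Zfp969, Zfp963, Zfp941, Zfp970, Zfp954, Zfp957, Zfp936 and Zfp966, were chosen after their values were seen. Of the other lists, called genes and Trim28, Setdb1, Zfp57 and Zfp445 are named. The members and lists were chosen with earlier results of these data known. Astrocyte markers (1 of 6 called higher, 4 lower), endothelial markers (2 of 5 higher), choroid plexus markers (0 of 5 called by edgeR) and newborn neuron markers (1 of 6 lower) were also counted. Gene coordinates are from GENCODE M21, counted from 1, and 99.5% of the table's IDs were found there. Promoter sequences are from RefSeq (GRCm38.p6), with 54 of 64 symbols matched.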

Additional observations from a re-analysis of the deposited data

How the results depend on the processing

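Over 17 alternatives the number of members called, Zfp984 and Zfp983 aside, stayed at 4 to 6 higher and 7 to 11 lower, against 5 and 9. Leaving out 1 library at a time gave 4 to 5 higher and 7 to 9 lower. Replicate numbers did not pair the libraries (correlations of same-numbered deviations 0.13, -0.079 and 0.0028), and with the replicate block 5 members were called higher and 9 lower. For the silencing pathway, leaving out the C57BL/6 libraries with Xist counts gave 1 higher and 1 lower, against 3 and 2, and leaving out 1 library gave 2 to 3 and 2 to 3. With similar transcripts summed, Zfp992 reversed to -0.16 and Sumo2 to -0.25, where the change is the added counts of their copies. Zfp951, Zfp961, Zfp973 and Zfp979 lost their call under 1, 8, 4 and 3 alternatives. For members with few reads, depth limits both the fold and the test.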
